A study of Rattus norvegicus with 6 samples.

Results

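The mitochondrial genome of the rat was represented in the deposited table by 37 rows, of 32662 rows in all. They were taken as every row whose locus lies on the chromosome named MT. By table symbol and locus, 13 were protein-coding genes, 2 were ribosomal RNAs (rRNAs) and 22 were transfer RNAs (tRNAs). The table names the protein-coding genes; the rRNAs are the unnamed rows with long loci of their own, called here the small rRNA (locus 68 to 1025 on MT) and the large rRNA (1094 to 2664). Expression was measured by RNA-seq in primary oligodendrocyte precursor cells from the cerebral cortex of 1 to 2 day old Sprague-Dawley rats. These cells divide and can mature into oligodendrocytes, which make myelin. The design had 3 control libraries and 3 libraries from cells kept for 72 hours with preformed fibrils of human alpha-synuclein. In both groups the precursors came off mixed glial cultures in 20% fetal bovine serum, and their own medium for 4 to 5 days held 10 ng/ml of the growth factors PDGF and FGF with 2% B27. Nothing in the labels ties libraries to cultures or litters, so the spread behind each p-value is that of these 6 libraries and may be technical.

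Mitochondrial DNA is a small circle that encodes core subunits of the respiratory chain, together with the rRNAs and tRNAs needed to translate them inside the organelle. Long transcripts are made from the heavy and the light strand and are cut apart, mostly at the tRNAs that lie between the other genes. The remaining subunits of the respiratory complexes, and all proteins that copy, transcribe and process mitochondrial DNA and RNA, are encoded in the nucleus. Levels are given as FPKM, by definition a fragment count divided by gene length and by a measure of library size. Division by length is meant to let levels of different genes be compared within a library. Only 5 of the 13 protein-coding genes have a locus of their own, and comparisons among the others are less certain. How library size entered these values is unknown, and comparisons between libraries depend on it. The FPKM totals ran from 360600 in control replicate 3 to 2219000 in control replicate 1.

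The libraries differed in rows above 0 and in the FPKM that 1 fragment adds, with replicate 1 of both groups apart. They also differed in cell type markers between the groups, and their depth in fragments is unknown. Between 11518 and 14219 rows were above 0 FPKM per library, fewest in replicate 1 (12003 control, 11518 fibril). Relative to control replicate 2, the FPKM that 1 fragment adds, read from low values, was 4.01 in control replicate 1, 6.92 in fibril replicate 1 and 0.813 to 1.95 elsewhere. The 7 matched precursor markers, which included Pdgfra, Cspg4 and Olig2, were above 0 in all 6 libraries, with a summed level of 1460 to 2390 FPKM without fibrils and 1180 to 1380 FPKM after exposure. Summed markers of differentiating oligodendrocytes were at 322 to 786 and 2180 to 3990 FPKM, astrocyte markers at 57.2 to 85.0 and 23.0 to 51.4 FPKM, neuron markers at 273 to 601 and 111 to 398 FPKM, and microglia and macrophage markers at 1.01 to 30.6 and 4.32 to 45.4 FPKM. Of endothelial, and of fibroblast and mural, markers 0 passed the filter, and Cldn5, Col1a2, Acta2 and Lum were listed at 0 throughout. The precursor, differentiating oligodendrocyte and astrocyte sums stood apart between the groups, and the neuron and microglia sums overlapped. The part of these cell types in the mitochondrial values was not tested. In bulk RNA, fewer cells of a type, fewer mitochondria per cell and less RNA per mitochondrion cannot be told apart.

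Mitochondrial transcripts took a large and very uneven part of the FPKM total in both groups. FPKM divides by gene length, so this is not a share of fragments. Of the FPKM total, the 37 rows took 80.3%, 34.6% and 21.2% in control replicates 1, 2 and 3, and 75.6%, 40.1% and 12.0% in the fibril replicates. The groups overlapped widely, with both replicate 1 libraries highest and fibril replicate 3 lowest. The group means were 45.4% ± 31.0 and 42.6% ± 31.9 (SD, n = 3 each), a difference of -2.79 percentage points (two-sided exact permutation p = 0.9, where 3 libraries against 3 cannot go below 0.1). Within replicate numbers the differences were -4.73, 5.51 and -9.16 points, and the sign of the overall difference turned on omitting control replicate 1 (14.7) or fibril replicate 3 (12.5). Without either replicate 1 library the difference was -1.83 points, and over all libraries without Mt-atp8 it was -1.31 points.

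**Figure D1:**
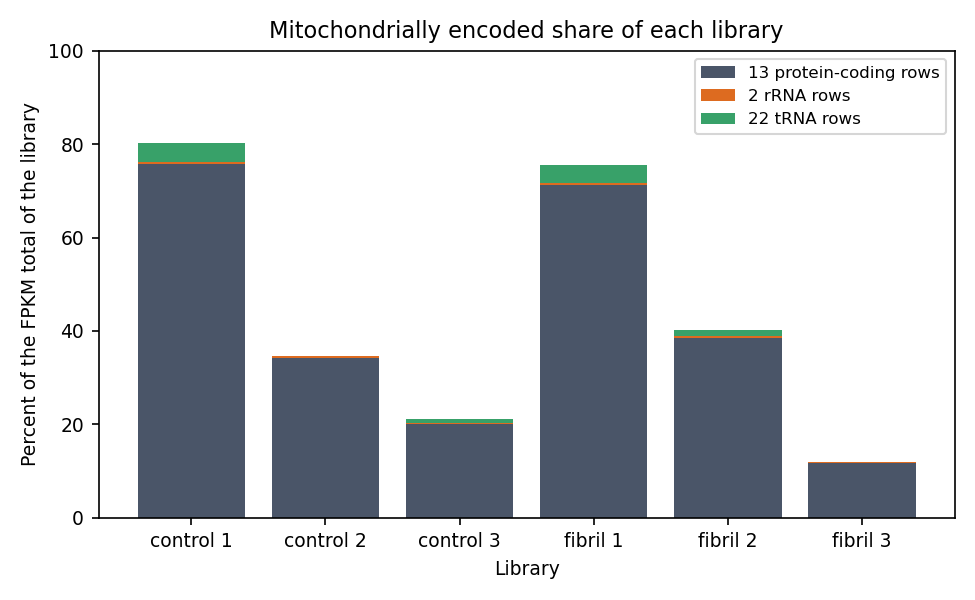
Percent of the FPKM total of each library (vertical axis) held by the 13 protein-coding, 2 rRNA and 22 tRNA rows of the mitochondrial genome, as stacked bars for the 3 control and 3 fibril libraries. Replicate 1 of both groups stands at 80.3% and 75.6%, and the other libraries lie between 12.0% and 40.1%.

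The protein-coding transcripts made up nearly all of this share. They held 75.8%, 34.2% and 20.1% of the FPKM total in controls and 71.3%, 38.4% and 11.8% with fibrils. Mitochondrial genes filled 15 of the 20 highest rows in both replicate 1 libraries, 12 and 13 in control replicates 2 and 3, 13 in fibril replicate 2 and 8 in fibril replicate 3. The highest row outside the mitochondrial genome was Dynll1, a dynein light chain gene, in replicate 1 (13630 and 11140 FPKM). It was Actb, the cytoplasmic actin gene, in control replicates 2 and 3 and fibril replicate 2, at 2793 to 3782 FPKM. In fibril replicate 3 it was the row AC095947.2, at 5112 FPKM.

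In the comparison of fibril with control libraries, 15 of the 37 rows passed the filter of 1 FPKM in at least 3 libraries: all 13 protein-coding genes, both rRNAs and 0 tRNAs. By limma on log2(FPKM + 1), 0 of these 15 passed an adjusted p of 0.05, and 0 had an unadjusted p below 0.05. Over the table, 0 of 10766 tested genes passed (0%), and 433 had an unadjusted p below 0.05 (4.02%). The log2 differences (fibril minus control) ran from -0.95 to 0.83, with SEs of 0.69 to 2.38 and adjusted p from 0.964 upward. Of the 15, 9 were positive with a median of 0.10, where 47% of all tested genes were positive. Scaled without the mitochondrial rows, 4 of the 15 were positive with a median of -0.21, beside a median of -0.30 over all genes. With the replicate number as a block, 0 of the 15 passed again (limma adjusted p from 0.527 to 0.982), beside 12 genes higher (0.111%) and 0 lower (0%) over the table. In 0 of the 15 did the groups stand apart, against 4.24% of tested genes with all fibril libraries higher and 5.3% with all lower.

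**Figure D2:**
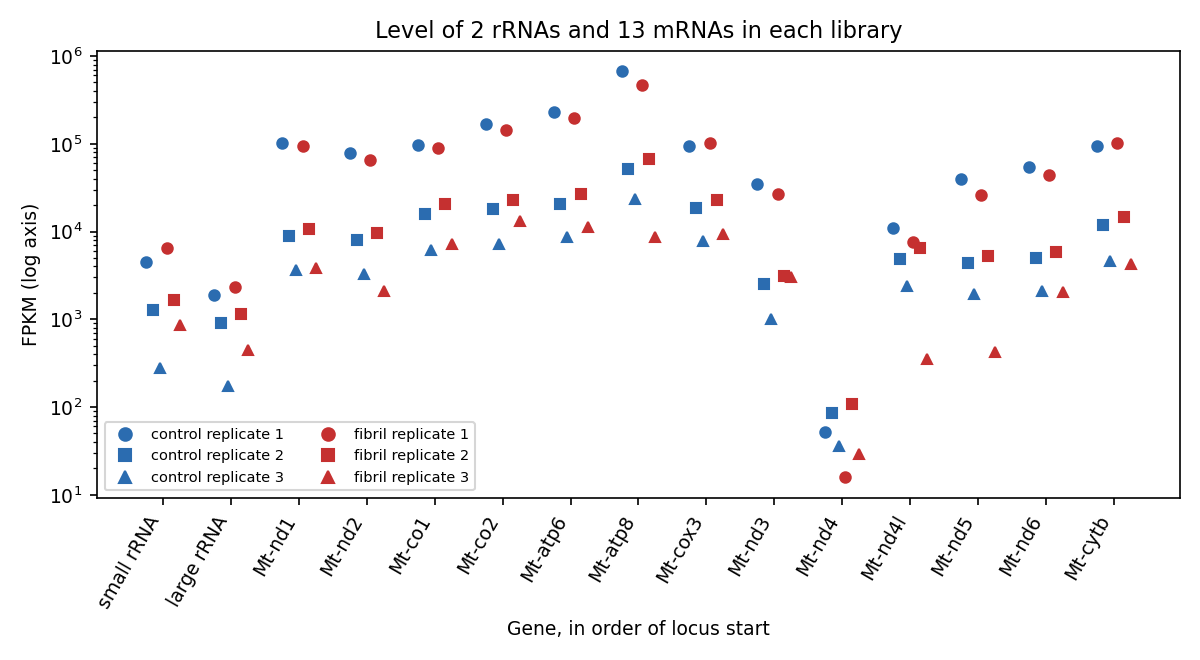
FPKM on a log axis of the 2 rRNAs and 13 mRNAs that passed the filter, in order of locus start, with 1 point per library (control blue, fibril red, shapes for replicate numbers). For 12 of the 13 mRNAs the replicate 1 libraries are the highest, while Mt-nd4 is highest in replicate 2 of both groups (85.8 and 108 FPKM).

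The genes of complex V, the ATP synthase, held the largest part of the summed mRNA FPKM in every library but fibril replicate 3. There the genes of complex IV held more (45.4% against 30.1%). This order rested on Mt-atp8, which alone held 30.5% to 40.1% outside fibril replicate 3. Mt-atp6, the other complex V gene, held 12.0% to 17.1%, below the complex IV genes in every library (21.5% to 45.4%). Mt-atp8, which encodes a small subunit of the membrane part of complex V, had 673901, 52204 and 23678 FPKM in control replicates 1, 2 and 3. With fibrils it had 463668, 67016 and 8601 FPKM. It was the highest of the mRNAs in 5 libraries and the fourth in fibril replicate 3, and the groups overlapped (log2 difference -0.55, SE 2.38, limma adjusted p = 0.991). Mt-atp6, the subunit that forms the proton channel, had 231708, 20505 and 8723 FPKM against 198496, 26784 and 11258 FPKM, second in every library. Mt-atp6, Mt-atp8 and Mt-cox3 share the locus 7758 to 9382 on MT in the table, since the genes overlap or adjoin. How fragments were divided among them is not given in the sources used here, so their separate values are uncertain.

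The ratio of Mt-atp8 to Mt-atp6 was 2.91, 2.55 and 2.71 in the controls and 2.34, 2.50 and 0.764 with fibrils. The 5 libraries other than fibril replicate 3 therefore lay within a narrow band, and that library was the only one with more Mt-atp6 than Mt-atp8. As a share of the summed mRNA, complex V genes held 53.9%, 42.5% and 44.7% in controls and 48.6%, 43.4% and 30.1% with fibrils.

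Complex IV, cytochrome c oxidase, has a catalytic core of 3 mitochondrially encoded subunits. Mt-co1, which carries the oxygen-reducing site, had 96718, 15960 and 6116 FPKM without fibrils and 90105, 20593 and 7266 FPKM after exposure. Mt-co2, which receives electrons from cytochrome c, had 170093, 18163 and 7148 FPKM against 144036, 23027 and 13201 FPKM. Mt-cox3, a structural core subunit, had 94068, 18490 and 7825 FPKM against 100822, 22904 and 9490 FPKM. The ranges of the groups overlapped for all 3 genes. Mt-cox3 was the only mRNA higher with fibrils within all 3 replicate numbers, by 0.10, 0.31 and 0.28 on the log2 scale; both rRNAs were too, and 16.9% of all tested genes showed that pattern. Of the 15 mitochondrial genes 0 were lower in all 3, against 19.3% of tested genes. The complex IV share of the summed mRNA was 21.5%, 30.7% and 29.1% in controls and 24.6%, 30.8% and 45.4% with fibrils (exact permutation p = 0.4).

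Complex III, which passes electrons to cytochrome c, has a single mitochondrially encoded subunit, cytochrome b. Its gene Mt-cytb (14136 to 15278 on MT) had 93278, 11905 and 4665 FPKM without fibrils and 101512, 14581 and 4302 FPKM after exposure. The gene kept nearly the same share of the summed mRNA throughout, at 5.55% to 7.45%.

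Complex I, NADH dehydrogenase, has 7 mitochondrially encoded subunits that form its membrane arm. Their summed share of the mRNA was 19.1%, 19.8% and 19.8% in controls and 19.4%, 19.1% and 17.9% with fibrils (exact permutation p = 0.2). Behind this even total the single genes differed widely. Mt-nd1 (2740 to 3694) had 102410, 8985 and 3596 FPKM without fibrils and 94607, 10816 and 3864 FPKM after exposure. Mt-nd2 (3904 to 4942) had 77870, 8086 and 3291 FPKM against 65206, 9607 and 2092 FPKM. Both genes have a locus of their own in the table. Their groups overlapped, with log2 differences of 0.09 (SE 1.75) and -0.22 (SE 1.70).

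Mt-nd3 (9451 to 9798), a short gene for another membrane subunit, had 35007, 2541 and 1000.1 FPKM without fibrils and 26693, 3077 and 3022 FPKM after exposure. Fibril replicate 3 was 3.02 times as high as control replicate 3, while the ratios in replicates 1 and 2 were 0.763 and 1.21. Mt-nd5, a subunit involved in proton pumping, showed the opposite contrast in replicate 3. It had 40055, 4384 and 1927 FPKM without fibrils and 25803, 5275 and 419 FPKM after exposure, ratios of 0.644, 1.20 and 0.217 within replicates.

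Mt-nd4 and Mt-nd4l overlap and share the locus 9870 to 11537 on MT, and their values stood far apart. Mt-nd4l had 10999, 4820 and 2403 FPKM without fibrils and 7657, 6547 and 351 FPKM after exposure. Mt-nd4 had 52.5, 85.8 and 35.6 FPKM against 15.7, 108 and 29.0 FPKM, the lowest of the 13 mRNAs in every library. Mt-nd4l was 56.2 to 67.5 times as high as Mt-nd4 in control replicates 2 and 3 and fibril replicate 2. The ratio was 210 and 487 in control and fibril replicate 1 and 12.1 in fibril replicate 3. As a pair on one locus, these values are the least certain of the protein-coding genes.

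Mt-nd6 is the single protein-coding gene read from the light strand. It shares the locus 11736 to 14061 with Mt-nd5, which lies on the other strand. The library kit marks strand, but whether the quantification used it is not stated in the sources used here. It had 54706, 5025 and 2091 FPKM without fibrils and 43625, 5861 and 2056 FPKM after exposure. Against the summed heavy-strand mRNAs its log2 ratio was -5.0 ± 0.10 in controls and -5.01 ± 0.13 with fibrils (SD, n = 3 each; exact permutation p = 0.9). Over the 6 libraries the ratio ran from -5.17 to -4.89. Without Mt-atp8 in the sum, the difference between groups went from -0.0091 to -0.18 (exact permutation p = 0.4).

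Expressed as shares of the summed mRNA, which removes the differing mitochondrial part of each library, 0 of 13 genes had groups that stood apart. The smallest exact permutation p was 0.2, and 0 passed after adjustment over the 13 genes (smallest adjusted p = 0.709). Control replicate 2, control replicate 3 and fibril replicate 2 had nearly the same composition. Their shares differed by a root mean square of 0.06 to 0.10 on the log2 scale over the 13 genes, and by 0.24 at most. The replicate 1 libraries were 0.46 from each other and 1.32 to 1.69 from those libraries, with Mt-nd4 the farthest gene. Fibril replicate 3 was 1.10 to 1.18 from control replicate 2, control replicate 3 and fibril replicate 2, with Mt-nd4l the farthest gene, and 1.42 and 1.67 from the replicate 1 libraries.

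**Figure D3:**
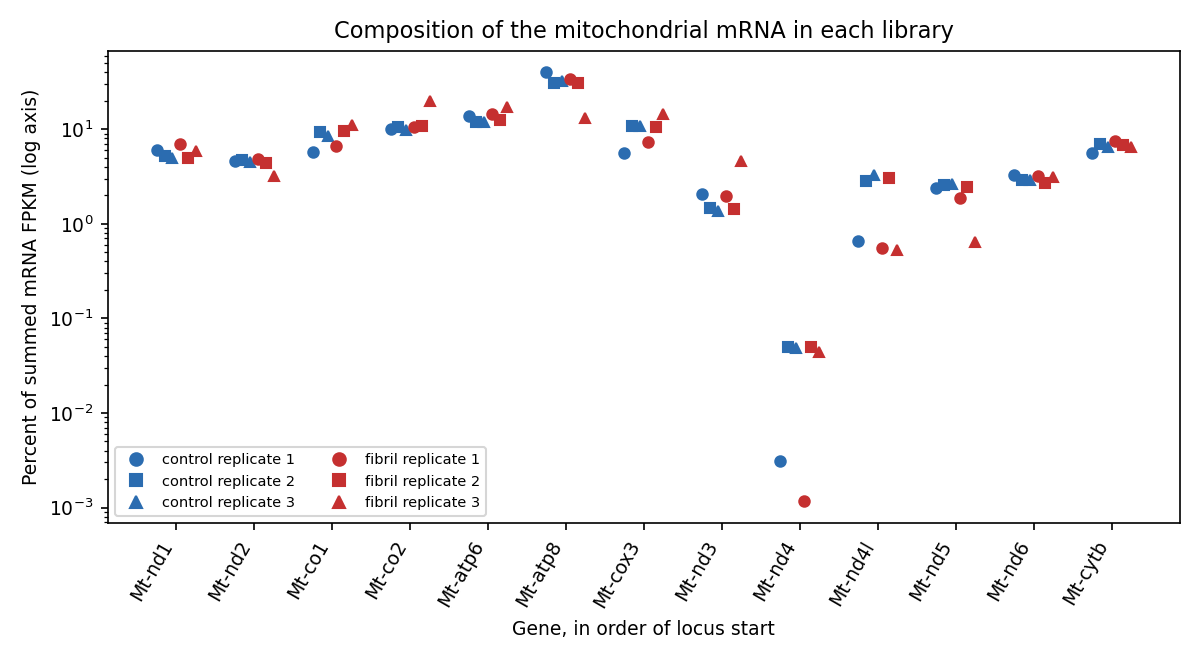
Percent of the summed mitochondrial mRNA FPKM held by each of the 13 genes, on a log axis, with 1 point per library (control blue, fibril red, shapes for replicate numbers). Fibril replicate 3 departs for Mt-atp8 (13%), Mt-co2 (20.0%), Mt-nd3 (4.58%) and Mt-nd5 (0.635%), and both replicate 1 libraries for Mt-nd4.

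In fibril replicate 3, Mt-co2 held 20.0% of the mRNA and was the highest gene, where the other libraries had 9.86% to 10.7%. Mt-nd3 held 4.58% against 1.38% to 2.08%. Mt-nd5 held 0.635% against 1.89% to 2.66%, and Mt-atp8 13% against 30.5% to 40.1%. The group differences for these 4 genes were smaller without that library, which largely follows from naming them for its departure. The log2 difference in share was -0.82 for Mt-nd5 and became -0.24 without fibril replicate 3. It went from -0.51 to -0.07 for Mt-atp8, from 0.36 to 0.06 for Mt-co2 and from 0.53 to 0.042 for Mt-nd3. Mt-nd5 and Mt-nd4 had a lower share with fibrils in 3 of 3 replicate numbers, and Mt-atp6, Mt-co1 and Mt-co2 a higher share. In replicate 2 these differences ran only from -0.07 to 0.048. Without Mt-atp8 in the sum, the group difference went from 0.21 to 0.045 for Mt-atp6 and from 0.21 to 0.04 for Mt-co1. It then was 0.2 for Mt-co2, -0.99 for Mt-nd5 and -0.7 for Mt-nd4. Shares of this sum are not defined for other genes, so no background count is given. With 3 pairs the exact sign-flip permutation test cannot go below p = 0.25.

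**Figure D4:**
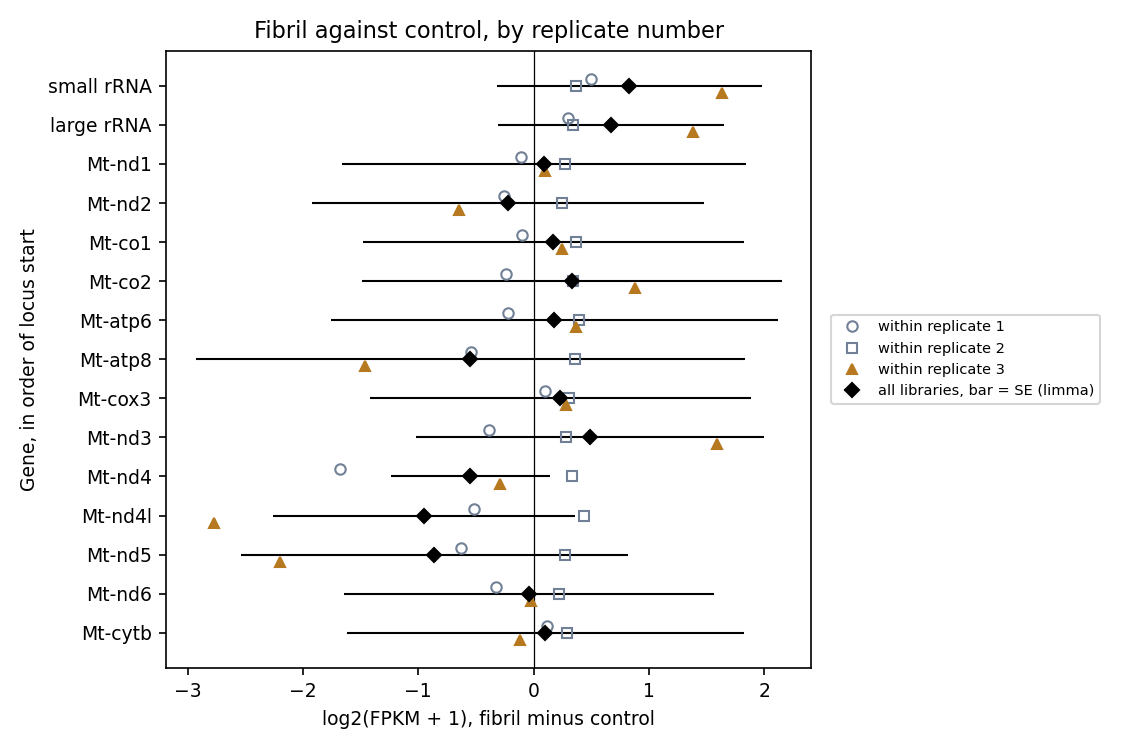
Difference in log2(FPKM + 1), fibril minus control, of 15 mitochondrial genes. Black diamonds with SE bars are the limma estimates over all libraries, and the other markers are differences within each replicate number; all 15 lie above 0 within replicate 2, while replicate 3 ranges from -2.77 (Mt-nd4l) to 1.63 (small rRNA).

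Within replicate numbers the genes did not move alike. In replicate 1, 4 of 15 were higher in the fibril library (median log2 difference -0.24), in replicate 2 all 15 were (median 0.33, from 0.22 to 0.44) and in replicate 3, 8 were (median 0.10). The medians over all tested genes within the same replicates were 0.00, -0.04 and -0.05.

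The rRNAs form the scaffold of the mitochondrial ribosome and summed to 0.381% to 1.99% of the summed mRNA FPKM. Any selection of poly(A) RNA is not given in the sources used here, so this ratio need not be that in the cells. Mt-nd4 lay below both rRNAs in every library, and Mt-nd4l and Mt-nd5 did so in fibril replicate 3. The small rRNA had 4526, 1277 and 277 FPKM without fibrils and 6413, 1646 and 857 FPKM after exposure. The large rRNA had 1886, 916 and 173 FPKM against 2328, 1162 and 452 FPKM. The groups overlapped for both, but each was higher with fibrils in 3 of 3 replicate numbers: the ratios were 1.42, 1.29 and 3.10 for the small rRNA and 1.23, 1.27 and 2.61 for the large. Neither passed (small rRNA, log2 difference 0.83, SE 1.15, limma adjusted p = 0.966; large rRNA, 0.67, SE 0.98, 0.966), nor with the replicate block (0.527 and 0.54). The signs turned without control replicate 3 (-0.21 and -0.30). The small exceeded the large rRNA in every library, by 1.39 to 2.76 times.

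Relative to the summed mRNA, the rRNAs stood at 0.381%, 1.28% and 0.621% in controls and 0.642%, 1.30% and 1.99% with fibrils. Fibril replicate 2 barely differed from control replicate 2 in this measure, and fibril replicate 3 was the highest library. On the log2 scale the group means were -7.22 ± 0.88 and -6.40 ± 0.82 (SD, n = 3 each), a difference of 0.82 (two-sided exact permutation p = 0.2). The differences within replicates were 0.75, 0.02 and 1.68 (exact sign-flip permutation p = 0.25). The difference was 0.44 without fibril replicate 3 and 0.41 without control replicate 1. It was 0.59 against the 5 protein-coding genes with a locus of their own, of which fibril replicate 3 had less of Mt-nd2 and Mt-cytb than its control and more of the other three.

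**Figure D5:**
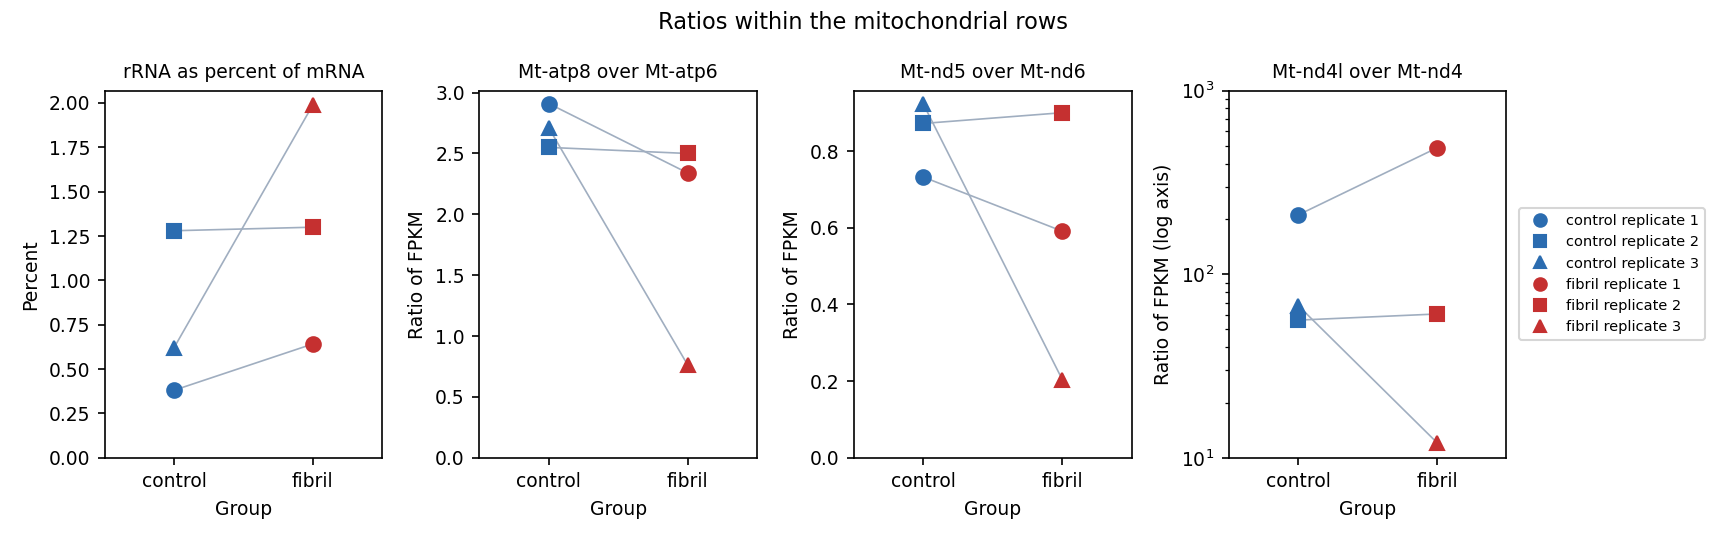
Left to right: summed rRNA as a percent of summed mRNA FPKM, Mt-atp8 over Mt-atp6, Mt-nd5 over Mt-nd6, and Mt-nd4l over Mt-nd4 (log axis), with 1 point per library and grey lines between libraries of the same replicate number. Fibril replicate 3 is the lowest library in the last 3 panels (0.764, 0.204 and 12.1) and the highest in the first (1.99%).

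The tRNA rows were nearly all listed at 0. Of 22, 17 were at 0 in all 6 libraries, and the other 5 were above 0 in 1 or 2 libraries each. No library had more than 3 of them, and control replicate 2 and fibril replicate 3 had 0. Where a tRNA row was above 0, its value was high. AY172581.19, which shares the locus 5323 to 6933 with Mt-co1, had 88903 FPKM in control replicate 1 and 70374 FPKM in fibril replicate 1 and was listed at 0 elsewhere. The remaining values were between 1932 and 6886 FPKM. Between libraries these rows went from 0 to at least 1932 FPKM with no value between, so no fold is given. A row at 0 can be a failed estimate in a table of this kind, since genes much shorter than a sequenced fragment are poorly estimated. The tRNA share of the FPKM total was 4.26%, 0% and 0.932% in controls and 3.87%, 1.22% and 0% with fibrils.

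Nuclear genes that maintain, transcribe and process mitochondrial DNA and RNA were examined as lists, and 0 members of any passed over all genes by limma, without the block or with it. For mitochondrial DNA transcription and replication, 20 of 22 genes were tested, 13 were positive and the median log2 difference was 0.08 (-0.20, -0.08 and 0.36 within replicates 1, 2 and 3). Tfam, which packages mitochondrial DNA and starts its transcription, had 80.8, 38.4 and 30.7 FPKM without fibrils and 94.4, 34.0 and 45.2 FPKM after exposure. Polrmt, the mitochondrial RNA polymerase, had 1.83, 3.06 and 3.92 against 1.57, 4.03 and 3.88 FPKM. The groups overlapped for both. Tfam was highest in the replicate 1 libraries, as were all mRNAs but Mt-nd4, and Polrmt was lowest there. The smallest p-values in this list belonged to Slc25a36, a mitochondrial pyrimidine nucleotide carrier (log2 difference -1.06), Rrm2b, a ribonucleotide reductase subunit (-0.71), and Polg, the mitochondrial DNA polymerase (-0.96), each with a limma adjusted p of 0.96. With 1 library left out these ranged over -1.64 to -0.37 for Slc25a36, -1.11 to -0.19 for Rrm2b and -1.76 to -0.33 for Polg.

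For RNA processing and stability, 26 of 28 genes were tested, 18 were positive and the median was 0.22. Within replicates the medians were -0.02, 0.01 and 0.54, and without fibril replicate 3 the median was 0.02. Lrpprc, whose protein stabilises mitochondrial mRNAs together with that of Slirp, had 9.18, 10.7 and 20.3 FPKM without fibrils and 9.24, 11.1 and 21.2 FPKM after exposure. These values were nearly the same within each replicate number. Slirp itself had 27.8, 9.19 and 3.40 against 32.7, 11.0 and 22.6 FPKM, higher in 3 of 3 replicate numbers, as were 16.9% of tested genes. Hsd17b10, a subunit of the enzyme that cuts the 5′ ends of mitochondrial tRNAs, had 30.8, 45.8 and 31.7 against 55.3, 45.8 and 111 FPKM. Mrm1, an rRNA methyltransferase, had 1.81, 1.98 and 1.62 against 3.12, 2.52 and 3.21 FPKM (log2 difference 0.49, SE 0.35, limma adjusted p = 0.96). All its fibril libraries lay above all controls, as in 1 of the 26 tested genes of this list and 4.24% of all tested genes.

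For translation factors and aminoacyl-tRNA synthetases, 29 of 33 genes were tested, 18 were positive and the median was 0.11. Within replicates the medians were 0.06, -0.01 and 0.36, and without fibril replicate 3 the median was 0.01. Mtfmt, which formylates the initiator methionyl-tRNA, had 5.07, 4.68 and 4.35 FPKM without fibrils and 7.30, 6.10 and 7.72 FPKM after exposure (log2 difference 0.49, SE 0.36, limma adjusted p = 0.96). All its fibril libraries lay above all controls, as in 1 of the 29 tested genes of this list and 4.24% of all tested genes. The synthetase genes Sars2 and Lars2 had log2 differences of 0.63 and -0.49, neither of which passed (limma adjusted p = 0.96 for both). With 1 library left out they ranged over 0.26 to 0.91 and -0.71 to -0.31.

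Of 15 regulators of mitochondrial biogenesis 12 were tested, 4 were positive and the median was -0.12. This median rested on replicate 3: within replicates it was 0.02, 0.02 and -0.35, and it was 0.01 without fibril replicate 3. In 3 genes (Ppargc1a, Sirt1 and Nrip1) all fibril libraries lay below all controls, a pattern of 5.3% of tested genes. Ppargc1a, which encodes the coactivator PGC-1 alpha that drives mitochondrial gene programmes, had 5.05, 2.90 and 6.13 FPKM without fibrils and 1.09, 2.16 and 0.508 FPKM after exposure. Its log2 difference was -1.36 (SE 0.44, limma adjusted p = 0.96, or 0.438 with the block), with all 3 fibril libraries lower than their controls. Sirt1, a deacetylase that acts on PGC-1 alpha, had 9.13, 6.59 and 6.14 against 4.98, 5.30 and 2.26 FPKM. Nrip1, a nuclear receptor corepressor that opposes the same programmes, had 1.92, 2.05 and 2.53 against 1.22, 1.78 and 0.779 FPKM. At these levels few fragments stand behind a value, most of all in replicate 1.

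For mitochondrial stress, proteases and mitophagy, 18 of 20 genes were tested, 13 were positive and the median was 0.25. Within replicates the medians were 0.06, 0.04 and 0.69. The median was 0.11 without fibril replicate 3 and -0.02 with quantile normalization. Atf5, a transcription factor of the mitochondrial unfolded protein response, had 4.76, 6.73 and 5.88 FPKM without fibrils and 18.6, 7.77 and 16.8 FPKM after exposure. The groups stood apart (log2 difference 1.11, SE 0.43, limma adjusted p = 0.96). All fibril libraries lay above all controls in 1 of the 18 tested genes of this list and in 4.24% of all tested genes. Bnip3, a mitophagy receptor that hypoxia induces, had 59.5, 24.5 and 14.4 against 87.6, 56.1 and 62.6 FPKM, and the groups overlapped. It was higher in 3 of 3 replicate numbers, as were 16.9% of tested genes. Ddit3, a stress-induced transcription factor, had 10.4, 7.36 and 5.69 against 15.2, 8.26 and 16.4 FPKM.

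The nuclear-encoded subunits of the same complexes set the mitochondrial mRNAs in context. Of 87 genes selected by symbol, 76 were tested, 0 passed by limma (smallest adjusted p = 0.96) and 71 had positive differences, against 47% of all tested genes, with medians of 0.40, -0.02 and 1.71 within replicates 1, 2 and 3. The log2 ratio of summed mitochondrial mRNA to summed nuclear subunits was 6.12, 3.85 and 3.34 in controls and 5.48, 4.12 and 1.39 with fibrils. The groups overlapped (difference -0.78, exact permutation p = 0.7), and the differences within replicates were -0.64, 0.26 and -1.96.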

How the data were processed

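The authors deposited FPKM for 32662 rat genes, 1 column per library, per the file headers; 0 columns of per-sample values were left unmatched to a sample. The submitters' processing notes list FastQC and Trimmomatic. Not given in the sources used here are the quantifier, the scaling between libraries, the genome build and any selection of poly(A) RNA; the kit was strand-specific, per the labels' protocols. Loci are as deposited, with the start raised by 1 because the table counts from 0. Fragment counts are unknown and no count model was run. Exact 0 values can be failed estimates.

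Differences were tested on log2(FPKM + 1), where fold changes of low genes are understated, for the 10766 genes that reached 1 FPKM in 3 or more libraries, with limma 3.58.1 in R 4.3.3 (mean-variance trend, two-sided, Benjamini-Hochberg, threshold 0.05) and tested on simulated data. Shares and ratios were tested by exact permutation of libraries. The tRNA to mRNA ratio was kept in percent because 2 libraries are at 0. The worth of 1 fragment was read from ratios of values below 1 FPKM as the most frequent log2 ratio within 0.03.

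Same-numbered libraries deviated together from their group means (r across genes 0.747, 0.364 and 0.216), above the limit of 0.1 for each, so values with the replicate block are given. The labels state no pairing, and 2 unmatched pairs correlated more than matched pairs 2 and 3 (control 3 with fibril 2, 0.50; control 2 with fibril 3, 0.433). Members and lists were chosen with earlier results of these data known. Named were the protein-coding genes and rRNAs, and from each nuclear list the 3 smallest p-values plus Tfam, Polrmt, Lrpprc and Ppargc1a. The tRNA row AY172581.19, Dynll1, Actb, AC095947.2 and the nuclear subunits were added after values were seen. The subunits are listed genes with symbols starting Nduf, Uqcr, Cox or Atp5, not every gene with such a symbol. Tfb2m is in 2 lists.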

Additional observations from a re-analysis of the deposited data

How the results depend on the processing

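Of the mitochondrial genes, 0 passed by limma in every alternative run. The tests of mRNA shares could not reach 0.05 in any alternative and say nothing about stability. Over the table, 2 genes passed at an adjusted p of 0.1, 12 with the replicate block, 1 without the mean-variance trend, 1 with the block on values scaled without mitochondrial rows, and 0 to 3 with 1 library left out. The block changed no call of a mitochondrial gene; as exact sign-flip permutation tests within replicates the total share had p = 0.75 and the rRNA to mRNA ratio 0.25. Scaling without mitochondrial rows moved the median of all genes from -0.04 to -0.30. It turned the differences of Mt-nd1 (-0.23), Mt-co1 (-0.14), Mt-cox3 (-0.08), Mt-atp6 (-0.13), Mt-cytb (-0.21), Tfam (-0.11), Polrmt (-0.18) and Lrpprc (-0.26), all above that median, and lowered the medians of all 5 lists, to -0.18 for transcription and replication, -0.05 for RNA processing, -0.17 for translation, -0.06 for stress and mitophagy (these 4 turned) and -0.39 for biogenesis regulators. Quantile normalization turned Mt-nd1 (-0.11) and Mt-co1 (-0.20). With replicates 2 and 3 only, Mt-nd4 (0.019), Mt-nd6 (0.10), the tRNA share (0.146 points) and the Mt-cytb share of mRNA (-0.012) turned. With medians, the light to heavy strand ratio (0.09) and the shares of Mt-nd6 (0.09) and Mt-cox3 (-0.027) turned. Without Mt-atp8, the shares of Mt-cytb (-0.032) and Mt-nd1 (-0.046) did. Both also turned (-0.047 and -0.06) when weighted by locus length among only the 5 protein-coding genes with a locus of their own. Relative to the geometric mean, the share of Mt-nd6 turned (0.08). The cause of these turns was not tested.

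Leaving out 1 library gave these ranges of limma log2 differences: Mt-nd1 -1.20 to 1.48, Mt-nd2 -1.51 to 1.08, Mt-nd3 -0.59 to 1.98, Mt-nd4 -1.31 to 0.044, Mt-nd4l -1.73 to 0.49, Mt-nd5 -2.23 to 0.74, Mt-nd6 -1.26 to 1.32, Mt-co1 -0.79 to 1.27, Mt-co2 -0.69 to 1.63, Mt-cox3 -0.70 to 1.22, Mt-atp6 -0.99 to 1.55, Mt-atp8 -1.97 to 0.91, Mt-cytb -1.13 to 1.31, the small rRNA -0.21 to 1.81, the large rRNA -0.30 to 1.42, Tfam -0.22 to 0.60, Polrmt -0.17 to 0.37 and Lrpprc -0.30 to 0.36. Slirp ranged over 0.31 to 1.67, Hsd17b10 0.49 to 1.12, Bnip3 0.80 to 1.79 and Sirt1 -0.89 to -0.42. Shares of the FPKM total ranged over -19.3 to 14.7 points in all, -18.3 to 13.3 for mRNA and -1.12 to 1.23 for tRNA. The light to heavy strand ratio ranged over -0.06 to 0.07, the tRNA to mRNA ratio over -2.26 to 0.888 points, and the mRNA shares of Mt-co1 over -0.0025 to 0.42, Mt-cox3 -0.05 to 0.51, Mt-nd4 -1.86 to 1.25 and Mt-nd6 -0.06 to 0.06. The number of fragments behind each value is unknown. Weighting by length was not run for shares of the total, since nuclear loci include introns, nor for the tRNA and light-strand ratios, whose loci are shared.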

Other observations

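Over the 6 libraries, the nuclear genes whose log2(FPKM + 1) followed that of the summed mitochondrial mRNA most closely were Oxsr1, a stress-responsive kinase gene (Pearson r = 0.9989), SCARNA7, a small Cajal body RNA (0.9964), Ggps1, a geranylgeranyl diphosphate synthase gene (0.9956), and the ubiquitin-conjugating genes Ube2e1 (0.995) and Ube2v2 (0.9942). They are the highest of 10751 nuclear genes compared, over which the median r was -0.189 and the top 5 percent began at 0.91. All these correlations share the 6 libraries, whose depth in fragments is unknown, and the position of replicate 1. Oxsr1 had 38.7, 18.3 and 14.4 FPKM without fibrils and 36.0, 20.5 and 13.2 FPKM after exposure, the same order of libraries as the summed mitochondrial mRNA, so that fibril replicate 3 was lowest and control replicate 1 highest. Ggps1 had 40.4, 9.96 and 6.42 FPKM against 31.1, 10.7 and 6.26 FPKM.

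The FPKM total of the rows outside the mitochondrial genome varied less than the mitochondrial sum. It was 436700, 327100 and 284300 in controls and 466700, 336800 and 493100 with fibrils, while the summed mitochondrial mRNA was 1681000, 171200 and 72500 against 1362000, 216200 and 65950. Fibril replicate 3 thus had the highest total outside the mitochondrial genome and the lowest mitochondrial mRNA sum. The scaling between libraries is not given in the sources used here, and its part in these totals was not tested.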
